A study of Danio rerio with 7 samples.

Results

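The ephrin-B ligand genes *efnb1*, *efnb2a* and *efnb2b*, the EphB receptor genes *ephb2b*, *ephb3a*, *ephb4a* and *ephb4b*, and *nr2f2*, the gene of a venous transcription factor, were followed through the differential open chromatin of sorted zebrafish cells. These 8 genes were chosen by name, and a peak was counted for a gene when the deposited annotation gave that gene as its nearest promoter. They held 154 of the 44025 listed peaks, and were 8 of the 9030 gene symbols with a listed peak.

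The study used ATAC-seq, in which a transposase inserts sequencing adapters into accessible DNA, on cells sorted from Tg(*kdrl*:GFP)s843 embryos of wild-type genotype. By the sample labels there were 3 libraries of *kdrl*:GFP+ cells and 3 of *kdrl*:GFP− cells, from embryos of 26 to 27 hours post-fertilization (hpf), and 1 genomic DNA control from embryos of 28 to 30 hpf, which served as the input for peak calling. GFP in this line is driven by the promoter of *kdrl*, a VEGF receptor gene, and only the brighter GFP cells of pooled embryos were taken as *kdrl*:GFP+. Dimmer GFP cells were in neither population. Arterial, venous and endocardial endothelium were sorted together, so the comparison was of bright *kdrl*:GFP+ cells with GFP-negative cells, not of arteries with veins.

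Eph receptors are receptor tyrosine kinases, and the ephrin-B ligands they bind are transmembrane proteins on neighbouring cells, so that contact signals into both cells. In the vessels of mouse and zebrafish, ephrin-B2 is known as a marker of arterial and EphB4 of venous endothelium, and their signalling keeps arterial and venous cells apart. The same family guides axons and forms boundaries in the hindbrain and between somites. *nr2f2* encodes COUP-TFII, an orphan nuclear receptor that in the mouse sets venous identity and restrains Notch signalling, and that is also expressed in neural and mesenchymal tissues.

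Each listed peak carried 1 value per cell population, the concentration, which is the log2 of the mean normalized reads over the libraries the authors used for that population. These differ from the labelled 3 and 3: the methods describe fewer *kdrl*:GFP+ libraries, after the removal of outliers, and more *kdrl*:GFP− libraries. The replicates were already pooled, so the spread between libraries and their depth are unknown, no value has an error, and no test was possible. A difference below is the *kdrl*:GFP+ less the *kdrl*:GFP− concentration, in log2 units, and a peak is called higher or lower by its sign. A higher concentration can come from more cells open at a site or from more open DNA per cell, and these cannot be told apart in sorted bulk cells. The lowest concentration in the table was −0.36 in *kdrl*:GFP+ cells and 0.22 in *kdrl*:GFP− cells, or 0.779 and 1.16 normalized reads. The sorted populations were described with marker genes of both. These lists were chosen with earlier results of these data known, and the endothelial list includes *kdrl* itself, so this was not an independent check. Peaks of endothelial markers were higher in *kdrl*:GFP+ cells in 66 of 74 cases (89.2%), with 8 of 10 genes listed, *egfl7* (21 peaks) and *flt1* (11 peaks) having the most. For neural markers 11 of 120 peaks (9.17%) were higher, with *sox2* (39 peaks) and *otx2* (20 peaks) having the most. Skeletal muscle markers had 7 listed peaks, of which 3 were higher, and among the red cell markers only *gata1a* had a listed peak, which was higher.

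Over the 8 genes, 36 of the 154 peaks (23.4%) were higher in *kdrl*:GFP+ cells and 118 were lower, whereas 44.7% of all listed peaks were higher. The median difference was −1.90 over the genes' peaks and −1.19 over the table. The share was therefore below that of the table, and by gene it ranged from 0% to 60.7%. For the ligand genes 26 of 55 peaks (47.3%) were higher, for the receptor genes 4 of 40 (10.0%), and for *nr2f2* 6 of 59 (10.2%). The ligand share was near the 44.7% of all listed peaks, and it rested largely on *efnb2a*: without its peaks, 33.3% of the ligand peaks were higher. Of the 40 receptor peaks 26 belonged to *ephb2b*, and without them 2 of 14 receptor peaks (14.3%) were higher. In descending order the shares were 60.7% at *efnb2a*, 40.0% at *efnb2b*, 33.3% at *ephb4a*, 31.8% at *efnb1*, 16.7% at *ephb3a*, 10.2% at *nr2f2*, 7.69% at *ephb2b* and 0% at *ephb4b*. Shares at *efnb2b*, *ephb3a*, *ephb4a* and *ephb4b* rest on 3 to 6 peaks each, and with no spread over libraries no neighbours in this order can be called different.

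**Figure D1:**
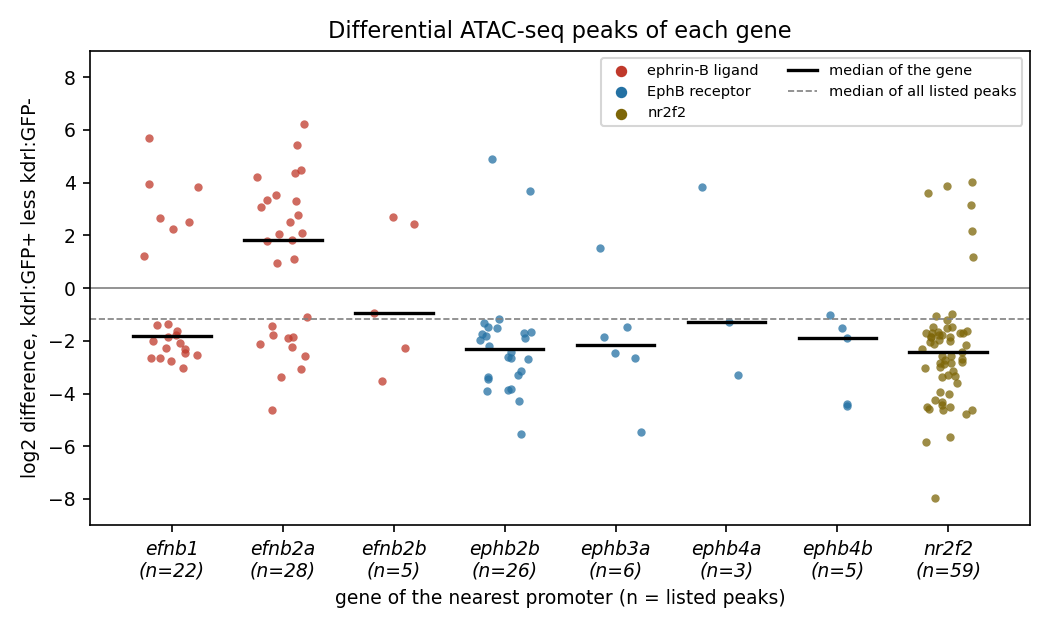
Difference of each listed peak between the cell populations (log2 units, vertical axis) for each gene, with 1 point per peak, a black bar at the gene's median and a dashed line at the median of all listed peaks (−1.19). The *efnb2a* median of 1.81 is the only one above 0, and most peaks of *ephb2b* and *nr2f2* lie below 0.

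Peaks that differed by at least 3 log2 units, an 8-fold difference, were 19 higher and 38 lower among the 154. Of all listed peaks, 17.8% were that much higher and 13.3% that much lower. Of the 19, 12 were among the 55 peaks of ligand genes (21.8%), 9 of them at *efnb2a*, 3 at *efnb1* and 0 at *efnb2b*. The others were 3 peaks of receptor genes (7.50%) and 4 of *nr2f2* (6.78%). Of the 38, 20 belonged to *nr2f2* (33.9% of its peaks), 13 to receptor genes (32.5%) and 5 to ligand genes (9.09%). By gene the share of strongly higher peaks was 33.3% at *ephb4a* (1 of 3 peaks), 32.1% at *efnb2a* and 13.6% at *efnb1*. It was 7.69% at *ephb2b*, 6.78% at *nr2f2* and 0% at *efnb2b*, *ephb3a* and *ephb4b*.

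No listed peak of the 8 genes was annotated to a promoter or an exon. Over all listed peaks, 899 (2.04%) were promoter peaks and 1479 (3.36%) exon peaks. Of the genes' peaks, 46 were intronic and 108 intergenic. Intronic peaks were higher in *kdrl*:GFP+ cells in 5 of 46 cases (10.9%) against 45.7% of all intronic peaks, and intergenic peaks in 31 of 108 cases (28.7%) against 42.9%. Within 20 kb of the promoter 3 of 26 were higher (11.5%), against 48.8% in the table. The listed peaks within that distance were thus mostly lower in *kdrl*:GFP+ cells, and the higher peaks of these genes lay mostly between genes. Sites open alike in both populations are not listed. The listed peaks nearest to the *efnb2b* and *nr2f2* promoters were higher in *kdrl*:GFP+ cells. Peaks that were lower in *kdrl*:GFP+ cells were the wider ones, with a median width of 596 bp against 451.5 bp for the higher peaks. The same order held in the table, at 519 and 481 bp.

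**Figure D2:**
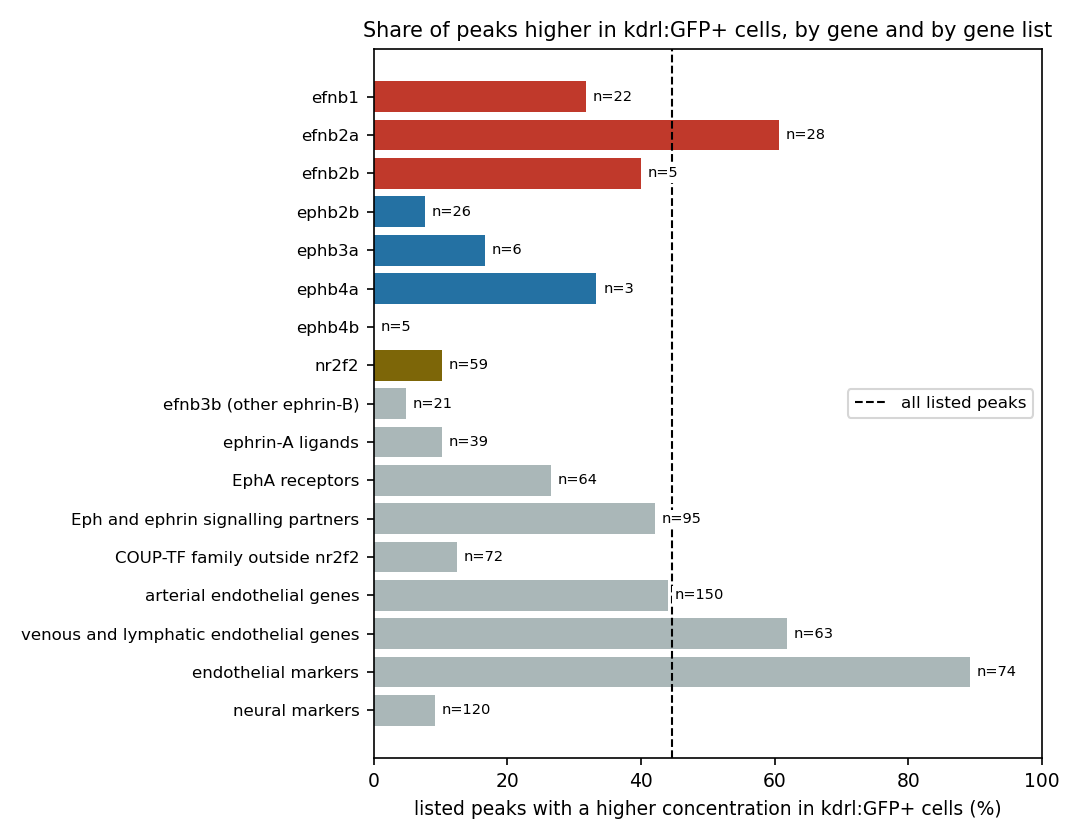
Share of listed peaks with a higher concentration in *kdrl*:GFP+ cells (percent, horizontal axis) for each of the 8 genes (ligands red, receptors blue, *nr2f2* brown) and for lists of related and marker genes (grey), with n the number of peaks and a dashed line at the share of all listed peaks (44.7%). *efnb2a* (60.7%) lies above the line, and the rest of the 8 genes lie below it. The skeletal muscle and red cell marker lists, with 7 peaks and 1 peak, are not shown.

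*efnb2a* encodes the arterial ephrin-B2 ligand. Its 5 exons span 27137159 to 27157051 of chromosome 9 (Zv9, plus strand). It had 28 listed peaks, more than 99.2% of all genes. All lay downstream of its promoter: the gene *arglu1a* was 7.201 kb upstream, and no listed peak on that side had *efnb2a* as its nearest promoter, while the next gene downstream in the deposited gene table was 1206 kb away. Its intronic peaks were of 1 direction, and its intergenic peaks of both.

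All 5 intronic peaks of *efnb2a* were lower in *kdrl*:GFP+ cells. In intron 1, the peak nearest to the promoter, at 2.45 kb, had a *kdrl*:GFP+ concentration of 5.10 and a *kdrl*:GFP− concentration of 6.52. Its neighbour at 3.07 kb had 5.002 and 6.79, and the peak at 5.18 kb had 5.08 and 7.67. The *kdrl*:GFP+ concentrations of these listed intron 1 peaks were thus close together, and the differences of −1.43, −1.78 and −2.58 followed the *kdrl*:GFP− values. Concentrations are not scaled to peak width, and these peaks were 367, 682 and 684 bp wide. In intron 2, the peak at 10.98 kb had 3.63 and 5.52, and the peak at 15.1 kb had 3.42 and 6.79, a difference of −3.36 or 10.3-fold.

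Beyond the gene most peaks had the other direction, with 17 of 23 intergenic peaks (73.9%) higher in *kdrl*:GFP+ cells and a median difference of 2.10. The nearest of them, 26.7 kb from the promoter, had concentrations of 6.71 and 3.93. A peak at 74.1 kb reached 6.27 against 2.05, or 18.6-fold. These lay in a group of 4 higher peaks between 26.7 and 84.4 kb, in which the peak at 81.8 kb, with 8.01, had the highest *kdrl*:GFP+ concentration of the locus and also a high *kdrl*:GFP− concentration, 6.93. A second group of 4 higher peaks, between 274.5 and 298 kb, held differences of 3.29 to 4.47. The largest of that group, on chromosome 9 from 27434912 to 27435596, had 6.63 in *kdrl*:GFP+ cells against 2.16 in *kdrl*:GFP− cells, or 98.7 against 4.46 normalized reads. It was among the 5 largest differences in the *kdrl*:GFP+ direction at the 8 genes.

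The most distal group held 6 higher peaks between 446 and 554 kb, with no lower peak among them. At 501 kb (27637725 to 27638252) the concentrations were 7.25 and 1.81, a difference of 5.44 or 43.3-fold. At 507 kb (27643900 to 27644789) they were 7.31 and 1.07, or 159 against 2.10 normalized reads. This was the largest difference in the *kdrl*:GFP+ direction at the 8 genes, 6.24, with a *kdrl*:GFP− value under 3 reads. Over all listed peaks the largest was 10.69. At the edges of the group the peak at 446 kb was weak in both populations (2.53 and 0.49), and the peak at 554 kb was open in both (7.24 and 6.29). No gene of the table lay between *efnb2a* and these peaks, and the data do not show on which gene they act.

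The 6 lower intergenic peaks stood alone or in a group of 3 between 363 and 374 kb. The strongest, at 239 kb, had 0.64 in *kdrl*:GFP+ cells, which is 1.56 normalized reads, and 5.28 in *kdrl*:GFP− cells. Along the locus the direction changed between neighbouring groups, giving 10 groups of peaks of 1 direction.

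**Figure D3:**
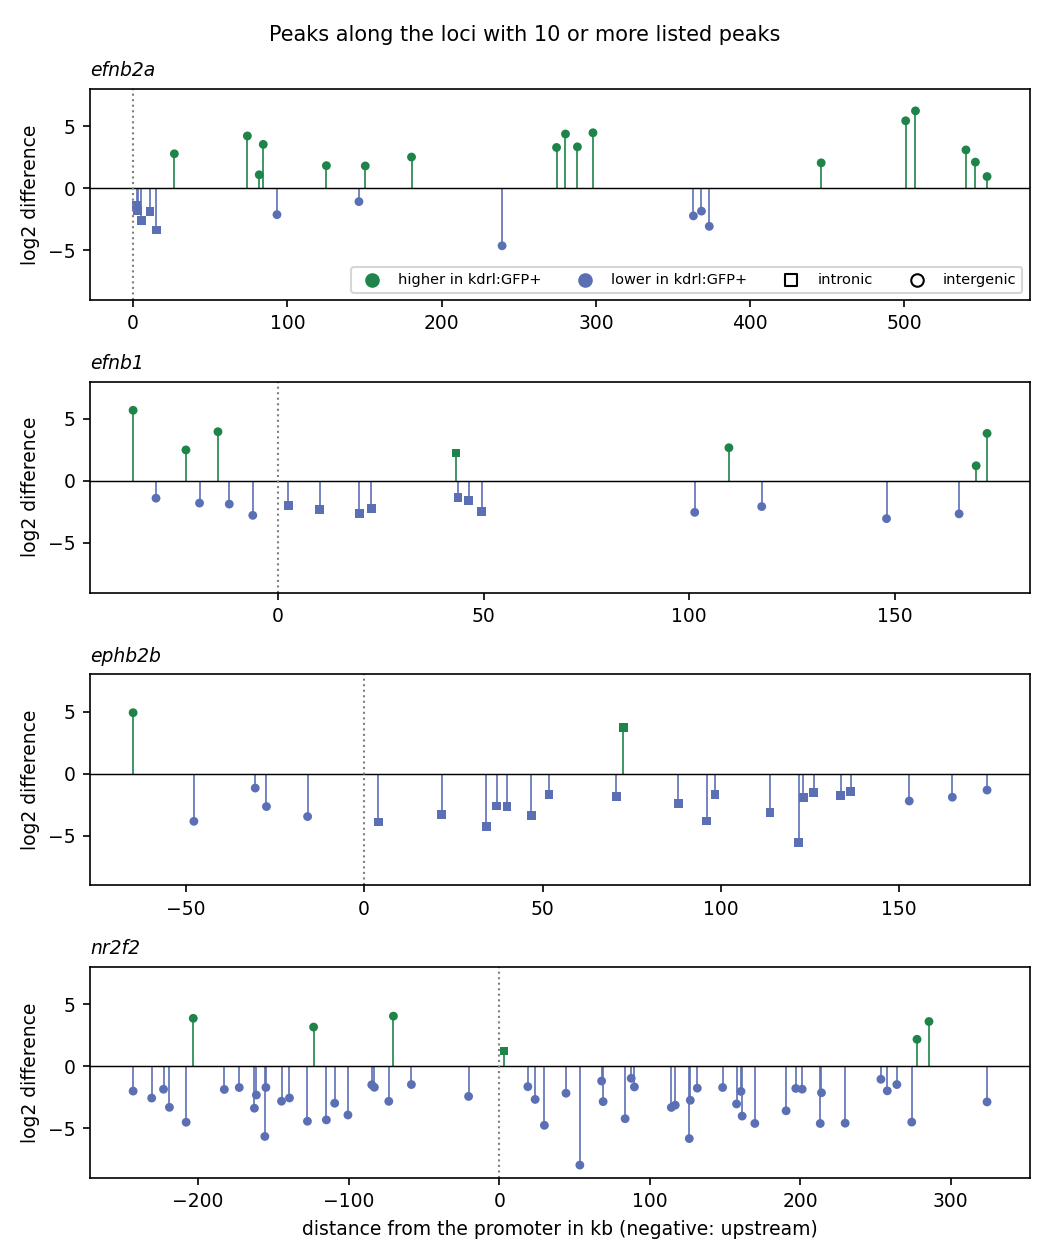
Difference of each peak (log2 units, vertical axes) against its distance from the gene's promoter (kb, horizontal axes with a separate scale for each gene) at the 4 loci with 10 or more listed peaks, green for higher and blue for lower in *kdrl*:GFP+ cells, squares for intronic and circles for intergenic peaks. At *efnb2a* the intronic squares lie below 0 and the 6 most distal peaks above it, and at *nr2f2* a run of 30 lower peaks lies downstream of the gene.

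*efnb1* encodes ephrin-B1, a ligand known for boundary formation and neural development. Its 5 exons span 37871179 to 37928851 of chromosome 5 (minus strand). Of its 22 peaks, 7 (31.8%) were higher in *kdrl*:GFP+ cells, with a median difference of −1.83 and a range from −3.04 to 5.69. Around the promoter, a group of 6 lower peaks ran from −11.9 to 22.7 kb. It held the peaks of intron 1, at 2.52 kb (5.61 and 7.60), 10.2 kb (5.53 and 7.84), 19.7 kb (7.55 and 10.20) and 22.7 kb (6.68 and 8.94). The *kdrl*:GFP− concentration of 10.20 was the highest of any ligand peak, and the *kdrl*:GFP+ value at the same site, 187 normalized reads, was not low either. These sites were thus accessible in both populations and more so in *kdrl*:GFP− cells.

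Upstream of *efnb1*, higher and lower peaks alternated. The peak farthest upstream, at −35.3 kb (chromosome 5 from 37963920 to 37964354), had 6.18 in *kdrl*:GFP+ cells against 0.49 in *kdrl*:GFP− cells, which is 1.40 normalized reads. Its difference, 5.69, was the second largest in the *kdrl*:GFP+ direction at the 8 genes. The next peak, at −29.7 kb, was the opposite, with 7.24 and 8.64. A peak at −14.6 kb was open mainly in *kdrl*:GFP+ cells (5.46 and 1.49, the latter also under 3 reads), and the peaks on either side of it, at −19.1 and −11.9 kb, were lower in them.

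Within intron 2, 2 listed peaks of *efnb1* with opposite directions were separated by 12 bp. The peak from 37884792 to 37885328 had 3.98 in *kdrl*:GFP+ cells against 5.35 in *kdrl*:GFP− cells, a difference of −1.37. The adjoining peak from 37885341 to 37885800 had 5.80 and 3.55, a difference of 2.25. Of 9 pairs of peaks of the same gene within 1 kb of each other, this was the only one with opposite directions. The higher peak of the pair was the only 1 of 8 intronic *efnb1* peaks in that direction.

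*efnb2b*, the second ephrin-B2 gene of zebrafish, has 2 gene models on chromosome 1 of Zv9. The models lie on the plus strand from 6398953 to 6424006 and from 6774236 to 6799314, 350 kb apart, and the lengths of all 5 exons are equal. Their sequences were not compared. If they are near-identical copies, reads could be split between them. How reads with several mapping positions were treated is not given in the sources used here, and the values of this gene are uncertain for that reason. In the model from 6774236, the intron 1 peak at 2.35 kb had 4.98 in *kdrl*:GFP+ cells against 2.30 in *kdrl*:GFP− cells, and an intergenic peak at 29.5 kb had 8.23 and 5.81. The latter was the highest *kdrl*:GFP+ concentration of any ligand peak. The intron 2 peak at 19.34 kb had 1.43 and 4.95. In the other model the intron 1 peak at 5.38 kb (6.39 and 7.34) and the intron 2 peak at 19.29 kb (4.68 and 6.95) were both lower in *kdrl*:GFP+ cells. The intron 2 peaks of the models lay at nearly the same distance from their promoters and had the same direction.

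*ephb4a* and *ephb4b* encode EphB4 receptors, the partners of ephrin-B2 on venous endothelium. *ephb4a*, with 17 exons between 70801886 and 70855636 of chromosome 5 (plus strand), had 3 listed peaks. The 1 peak that was higher in *kdrl*:GFP+ cells was in intron 9, at 36.6 kb (70838246 to 70838771), with 8.49 in *kdrl*:GFP+ cells against 4.67 in *kdrl*:GFP− cells. This is 360 against 25.5 normalized reads, or 14.1-fold. The peak in intron 4, at 18.7 kb, was the opposite, with 7.02 and 10.31, or 9.80-fold lower in *kdrl*:GFP+ cells. Its *kdrl*:GFP− concentration was the highest of the 154 peaks. The peak upstream, at −14.4 kb, had 4.85 and 6.12. Sites that differed strongly in opposite directions thus lay in different introns of this gene.

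*ephb4b* has 17 exons between 44476466 and 44527722 of chromosome 23 (plus strand). All 5 of its listed peaks were lower in *kdrl*:GFP+ cells. In intron 1, the peak at 4.79 kb, the nearest to the promoter, had 8.01 and 9.54, and the peak at 7.47 kb had 3.10 and 7.50, or 21.2-fold. A peak at 29.3 kb that overlapped exon 5 had 5.15 and 9.63, or 22.4-fold. Upstream, a broad peak of 2571 bp at −13.6 kb was open in both populations, with 9.13 and 10.14, and had the highest *kdrl*:GFP+ concentration of the 154 peaks. The remaining peak, at −38.1 kb, was in an intron of another gene and was weak (2.24 and 4.15).

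The rule of the nearest promoter left out 3 listed peaks that lie within *ephb4b* but were assigned to *eif4e2rs1*, the next gene downstream. The one in intron 9 was lower in *kdrl*:GFP+ cells (6.61 and 7.50), and those in intron 11 (6.65 and 5.50) and intron 15 (6.64 and 4.05) were higher. The absence of higher peaks at *ephb4b* therefore depends on this assignment, and its 3′ portion held sites that were more open in *kdrl*:GFP+ cells.

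**Figure D4:**
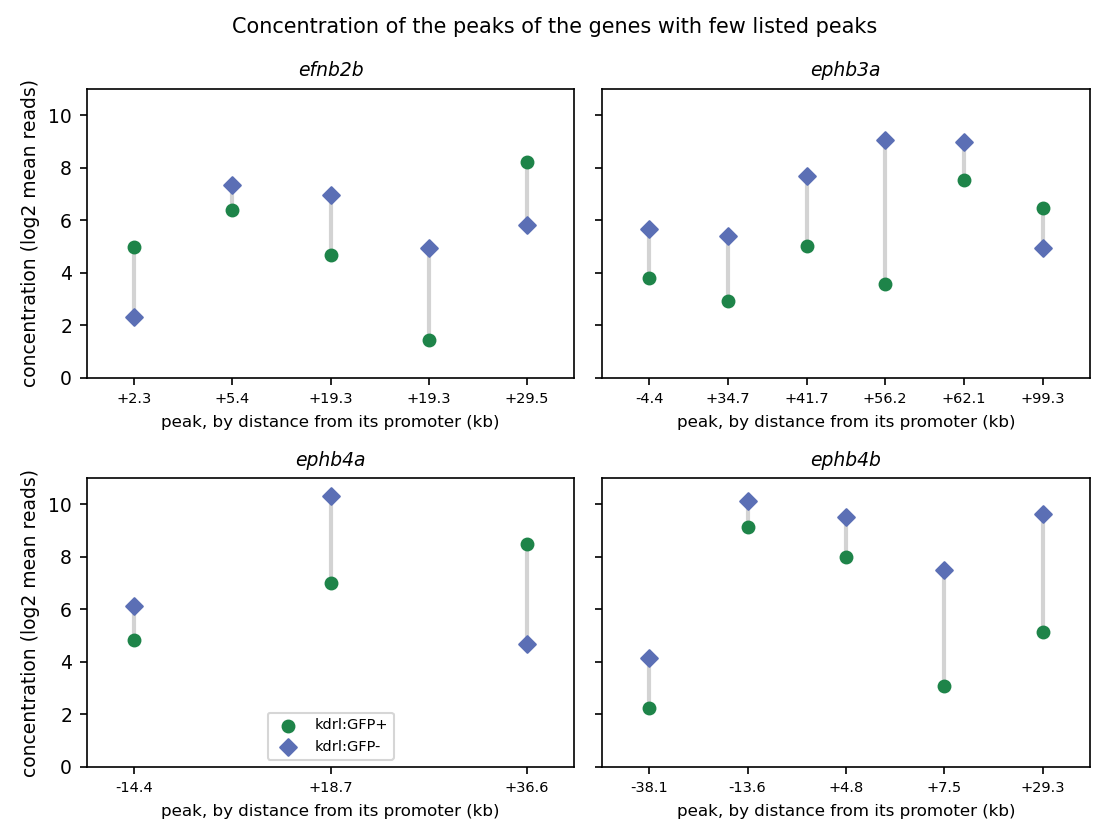
Concentration of each peak (log2 mean normalized reads, vertical axis) in *kdrl*:GFP+ (green circles) and *kdrl*:GFP− cells (blue diamonds) at the 4 genes with 3 to 6 listed peaks, ordered by distance from the promoter (kb, not to scale). The *ephb4a* peak at 36.6 kb has 8.49 in *kdrl*:GFP+ cells against 4.67 in *kdrl*:GFP− cells, while all 5 *ephb4b* peaks have the higher value in *kdrl*:GFP− cells.

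*ephb2b* encodes an EphB2 receptor, known from axon guidance and hindbrain patterning. Its exons were split in the deposited gene table over chromosome 11 (5 exons from 29094981 to 29243375) and chromosome 23 (4 exons), and all 26 peaks lay on chromosome 11. The *kdrl*:GFP+ value was the lower one at 24 of them, with a median difference of −2.31, and 9 were lower by at least 3 log2 units. The 18 intronic peaks included 1 that was higher. Peaks of 1 direction ran on in 2 groups of 12 lower peaks, which were parted by a single higher peak.

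Intron 1 of *ephb2b* held 9 of the peaks. The nearest to the promoter, at 3.93 kb, had 3.25 in *kdrl*:GFP+ cells against 7.16 in *kdrl*:GFP− cells, or 15.0-fold. The peaks at 21.7 kb (5.93 and 9.23), 34.2 kb (2.57 and 6.86) and 46.8 kb (2.08 and 5.46) were also lower by more than 3 log2 units. Those at 37.1 kb (4.79 and 7.42), 40.0 kb (6.59 and 9.28), 51.8 kb (7.25 and 8.95) and 70.6 kb (5.04 and 6.87) differed less. The exception was a peak of 240 bp at 72.6 kb, with 5.86 and 2.18, a difference of 3.68. It lay 1 site beyond the lower peak at 70.6 kb, so that neighbouring sites in the same intron had opposite directions.

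The other higher peak of *ephb2b* was at −64.8 kb (chromosome 11 from 29030009 to 29030435), with 5.81 and 0.90, the latter being 1.87 normalized reads. Its difference, 4.91, was also among the 5 largest in the *kdrl*:GFP+ direction at the 8 genes. At the other end stood a peak in intron 3, at 122 kb (29216378 to 29217193), with 3.85 and 9.38. This is 14.4 against 668 normalized reads, or 46.4-fold lower in *kdrl*:GFP+ cells. A second peak began 74 bp beyond it and was open in both populations (6.86 and 8.82).

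*ephb3a*, the gene of an EphB3 receptor, has 16 exons between 7709428 and 7801493 of chromosome 2 (minus strand). It had 6 listed peaks, 1 of them higher. The nearest to the promoter, at −4.39 kb, had 3.80 and 5.66. A peak in intron 9, at 56.2 kb, had 3.58 in *kdrl*:GFP+ cells against 9.05 in *kdrl*:GFP− cells, or 44.2-fold, and after that of *ephb2b* it was the most negative difference of any receptor peak. Although annotated as intronic, 3 peaks overlapped exons: the one at 34.7 kb overlapped exon 5 (2.936 and 5.399), the one at 41.7 kb exons 7 and 8 (5.02 and 7.68), and the one at 62.1 kb exon 12 (7.52 and 8.99). All 3 were lower in *kdrl*:GFP+ cells. The higher peak was intergenic, at 99.3 kb, with 6.48 and 4.95.

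*nr2f2* has 3 exons between 23652347 and 23659065 of chromosome 18 (minus strand), and its neighbours in the gene table were 513 kb upstream and, for *mef2aa*, 516 kb downstream. It had 59 listed peaks, which placed it at rank 2 of the 9030 genes, where the median was 3 peaks per gene. The *kdrl*:GFP+ value was the lower one at 53 of them, with a median difference of −2.43, and 20 were lower by at least 3 log2 units. Upstream 3 of 25 and downstream 3 of 34 peaks were higher, against 43.3% and 45.8% of all listed peaks on those sides. By at least 3 log2 units, 3 upstream peaks and 1 downstream peak were higher, and 7 upstream and 13 downstream peaks were lower. Of all 19187 listed upstream peaks, 3300 were that much higher and 2571 that much lower. Of all 24835 listed downstream peaks, 4554 were that much higher and 3271 that much lower. Of the 58 intergenic peaks of *nr2f2* 5 were higher, against 42.9% of all intergenic peaks.

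The 1 peak within *nr2f2* went the other way. It lay in intron 2, at 3.16 kb (chromosome 18 from 23655795 to 23656018), with 5.85 in *kdrl*:GFP+ cells against 4.66 in *kdrl*:GFP− cells, or 57.6 against 25.3 normalized reads. The difference of 1.19 was the smallest of the 6 higher peaks. The nearest peaks on either side, at −20.3 kb (2.36 and 4.80) and 19.0 kb (4.07 and 5.72), were lower in *kdrl*:GFP+ cells.

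The 5 other higher peaks of *nr2f2* were far from the gene. Upstream they lay at −203 kb (6.04 and 2.18), −123 kb (7.21 and 4.05) and −70.3 kb (6.36 and 2.32). Each of these stood alone between lower peaks. Downstream they lay next to each other at 278 kb (5.67 and 3.50) and 286 kb (5.86 and 2.25). In *kdrl*:GFP+ cells they ranged from 5.67 to 7.21, so that some distal sites at this locus were accessible in that population. Some sites counted as lower were also open in it. The highest *kdrl*:GFP+ concentration of the locus was at such a site, 68.1 kb downstream (7.98 and 9.17). Another, at −183 kb, had 7.13 and 9.00.

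Between 19.0 and 274 kb downstream of the *nr2f2* promoter, 30 listed peaks in a row were lower in *kdrl*:GFP+ cells, over a stretch of 255.8 kb. Their differences ranged from −0.98 down to values that rest on the lowest concentration. For 5 peaks of *nr2f2* the *kdrl*:GFP+ concentration was that lowest value, −0.36, so no fold is given for them. This is 8.47% of its peaks, against 3.29% of all listed peaks. The strongest of these in *kdrl*:GFP− cells was at 53.6 kb (23604926 to 23606024), with 7.61 or 196 normalized reads. The next were at 126 kb (5.47) and −156 kb (5.30), and the others at 229.9 kb (4.23) and −127 kb (4.08). At these sites the *kdrl*:GFP+ population had no more than the fewest reads listed for any peak. By their computed differences the peaks at 53.6, 126 and −156 kb were the 3 most negative of the 8 genes, followed by the intron 3 peak of *ephb2b* and the intron 9 peak of *ephb3a*.

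**Figure D5:**
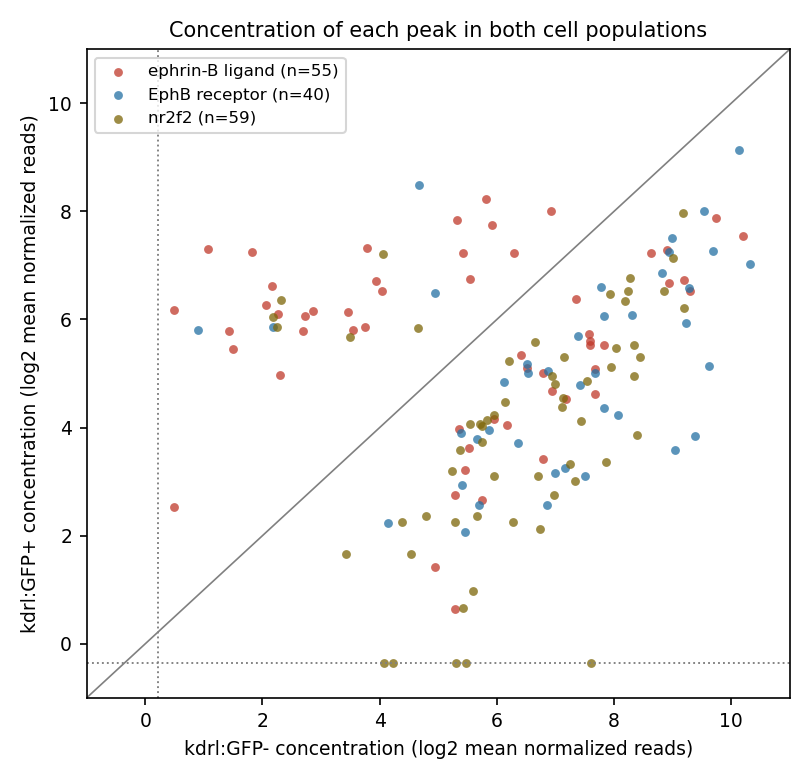
Concentration of each of the 154 peaks in *kdrl*:GFP− cells (horizontal axis) and *kdrl*:GFP+ cells (vertical axis), both as log2 mean normalized reads, coloured by ligand, receptor and *nr2f2*, with a diagonal of equal values and dotted lines at the lowest concentration of each population (0.22 and −0.36). Points above the diagonal are the 36 higher peaks, and 5 peaks of *nr2f2* lie on the dotted horizontal line.

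In level, the higher peaks of the 8 genes had a median concentration of 6.22 in *kdrl*:GFP+ cells against 3.17 in *kdrl*:GFP− cells, and the lower peaks 4.50 and 7.12. The corresponding medians of the table were 6.86 and 4.08 for higher, and 4.50 and 6.59 for lower peaks. The higher peaks of these genes were thus somewhat weaker in *kdrl*:GFP+ cells than those of the table. Of the 154 peaks, 60 (39.0%) lay above the median *kdrl*:GFP+ concentration of the table. For 15 of the 154 the lower of the concentrations was under 3 normalized reads (9.74%, against 12.1% of all listed peaks), 7 of them at *nr2f2*.

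Other genes of the pathway were described in the same way, from lists of names. Of 5 further ephrin-B and EphB genes only *efnb3b*, an ephrin-B3 ligand, had listed peaks, of which 1 of 21 (4.76%) was higher in *kdrl*:GFP+ cells. The ephrin-A ligands, which are anchored in the membrane by a lipid, had 39 peaks at 4 of 8 genes, with 4 higher (10.3%) and a median of −1.66. Most were at *efna5b* (1 of 13 higher) and *efna1b* (1 of 12). The EphA receptors had 64 peaks at 4 of 12 genes, with 17 higher (26.6%) and a median of −1.61, led by *epha4a* (6 of 22) and *epha7* (6 of 19). All 3 lists had shares under the 44.7% of the table, as the EphB receptors had.

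Genes that signal with Eph receptors and ephrins had 95 peaks at 10 of 21 genes, with 40 higher (42.1%) and a median of −1.27. The 2 genes with the most peaks differed, with 7 of 40 higher at *pdzrn3b*, the gene of a ubiquitin ligase with PDZ domains, and 10 of 17 at *rgs3a*, the gene of a regulator of G-protein signalling. The COUP-TF relatives of *nr2f2* had 72 peaks at 4 of 5 genes, with 9 higher (12.5%) and a median of −2.06. All 9 were at *nr2f1a* (44 peaks), and *nr2f1b* had 0 of 14. The shares of *nr2f2* and of its relatives were thus both under that of the table.

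Lists of arterial genes and of venous and lymphatic genes were taken by name, with earlier results of these data known. How specific their members are to vessels was not tested. The arterial list had 150 peaks at 13 of 14 genes, with 66 higher (44.0%) and a median of −1.10. It was led by *sox17* (14 of 38), a transcription factor gene, and *dll4* (11 of 15), a Notch ligand gene. The venous and lymphatic list had 63 peaks at 7 of 10 genes, with 39 higher (61.9%) and a median of 1.42. Its genes with the most peaks were *prox1a* (8 of 21), a lymphatic transcription factor gene, and *osr1* (4 of 12). *efnb2a* at 60.7% lay above the share of the arterial list, but also close to the 61.9% of the venous and lymphatic list. Within the arterial list, *sox7*, *cldn5b*, *dll4*, *hey2*, *cxcr4a* and *tbx20* had higher shares than *efnb2a*, and the other genes with listed peaks had lower ones. *nr2f2* at 10.2% and *ephb4b* at 0% lay below the share of the venous list, as did each of the 8 genes. The 0% at *ephb4b* leaves out higher peaks within the gene that were assigned to *eif4e2rs1*. At the scavenger receptor genes of venous and lymphatic endothelium in this list, all 5 listed peaks of *stab1* and all 8 of *stab2* were higher.

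For the 4 genes with 10 or more listed peaks, the most similar genes were sought among 1180 genes with at least 10 peaks, by the share of higher peaks and the median concentration in each population. Likeness was measured as the distance over these 3 values, each divided by its SD over the 1180 genes. Nearest to *efnb2a* were *bcas3* (distance 0.147), *arfip2a* (0.203) and *bcl9l* (0.210). Nearest to *efnb1* were *pxylp1* (0.083), *march7* (0.144) and *zgc:110158* (0.165). For *ephb2b* they were *insm1b* (0.125), *dbx1a* (0.157) and *odz4* (0.198), and for *nr2f2* *pax7b* (0.056), *ptf1a* (0.085) and *gbp* (0.125).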

How the data were processed

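Reads from the sorted *kdrl*:GFP+ and *kdrl*:GFP− populations were trimmed by the authors with Trimmomatic, mapped to Zv9 with BWA 0.7.12, and used for peak calling in each sample against genomic DNA. The authors compared the groups with DiffBind by its edgeR method, and peaks were annotated to the nearest RefSeq promoter. Library scaling, duplicate removal and any shift of reads for the transposase are not given in the sources used here. The concentrations that the authors deposited are log2 values of mean normalized reads per cell population, for differential peaks only. The paper's methods describe fewer *kdrl*:GFP+ libraries (outliers having been removed) and more *kdrl*:GFP− libraries in this comparison than the labels list, and which labelled libraries entered each mean is not given. The deposited fold and p-value columns hold the authors' comparison and were not used. A further deposited table of 14612 genes gave only exon coordinates. Its 6 per-sample columns match no sample of the series, and its fold change, CPM and p-value columns are a comparison of the authors; neither were used.

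Differences were computed from the concentrations, counted by sign and at 3 log2 units, and set beside the same counts over all 44025 peaks. Python 3.11.15, numpy 2.4.6, pandas 2.3.3 and matplotlib 3.10.9 were used, and the counting was tested on simulated data. All 8 genes were named, with the peaks nearest to each promoter, those in promoters, exons or intron 1, and the 5 highest and 5 lowest differences. The *efnb1*, *efnb2a*, *ephb2b* and *nr2f2* peaks singled out beyond these, the peaks within *ephb4b* assigned to another gene, and *stab1* and *stab2* were chosen after their values were seen. Of each list, the 2 genes with the most peaks were named. The members and lists were chosen with earlier results of these data known. Alternatives were other distance limits, minimum differences, merging of peaks within 1 kb, current gene symbols and peak width. Leaving out peaks under 3 reads, genes or the second *efnb2b* model, and adding peaks within *ephb4b*, were chosen after seeing the data.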

Additional observations from a re-analysis of the deposited data

How the results depend on the processing

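No paired analysis was possible because the deposited columns are means over libraries and carry no replicate numbers; for the same reason no replicate could be left out. Alternatives were run for the shares of the 8 genes, the ligands, the receptors and *nr2f2*, for the median difference of the 8 genes and for the concentration. In 46 cases the value stayed within the 95% interval of the main value, and in 11 it did not. That interval counts peaks as if they were independent, is wide for few peaks and holds no spread between libraries. Most alternatives were also subsets of the same peaks. Some of the 46 touched no peak of a set, so its value could not move. Leaving out the second *efnb2b* model did so for the receptors and *nr2f2*. Leaving out peaks at the lowest concentration did so for the ligands and receptors, and adding peaks within *ephb4b* for the ligands and *nr2f2*. The interval is therefore only a yardstick for the size of a change, and a value within it is not shown to be firm. The median of the 8 genes stayed below 0. The share of higher peaks over the 8 genes was 11.5% within 20 kb of the promoter, 33.3% among peaks that differed by at least 3 log2 units, 31.6% without *nr2f2* and 15.1% without *efnb2a*, against 23.4%. The median difference among peaks of at least 3 log2 units was −3.36. For the ligands the share was 33.3% within 100 kb, 12.5% within 20 kb and 33.3% without *efnb2a*, against 47.3%. It was 70.6% among ligand peaks of at least 3 log2 units. The 44.7% of the table covers all peaks, and the share of the table also changed under such limits. Of all listed peaks within 20 kb of a promoter, 48.8% were higher. At 3 log2 units or more, 7854 of all listed peaks were higher and 5842 lower. For the receptors it was 0% of 8 peaks within 20 kb and 18.75% among peaks of at least 3 log2 units, against 10.0%. For *nr2f2* it was 50.0% of 2 peaks within 20 kb and 16.7% among peaks of at least 3 log2 units, against 10.2%. Merging close peaks, leaving out peaks at the lowest concentration or under 3 reads, and current gene symbols, which 128 of the 154 peaks had, moved none of these shares, nor the median of the 8 genes, out of that interval. For *efnb2a* alone the share was 40.0% of 10 peaks within 100 kb and 0% of 5 within 20 kb, against 60.7%. Without the second *efnb2b* model, 0 of its 2 remaining peaks were higher. The depth of the libraries is unknown, so it limits the firmness of each value by an unknown amount, and sites open alike in both populations are not listed.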
